A study of Mus musculus with 14 samples.

Results

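The 10 genes described here are neuropeptide and neuropeptide receptor genes, followed in mouse hippocampal cultures with and without block of inhibition. They comprise 8 peptide precursor genes known from inhibitory interneurons or, for some, other hippocampal cells (Sst, Npy, Cck, Tac1, Tac2, Crh, Cort and Nts) and 2 receptor genes, Ntsr1 and Npy1r. They were taken by symbol from count tables of 43629 gene identifiers, and all 10 were among the 15959 genes with enough reads to be tested. Cultures came from wild-type C57BL6 pups of postnatal day 0 to 1 and were grown for 14 days in vitro. Of 8 cultures, 4 (CTRL) had 0.1% DMSO, the solvent, and 4 (PTX) had 100 µM picrotoxin, each for 15 h, and the submitters call the 4 libraries of a group biological replicates. Picrotoxin blocks the chloride channel of GABA-A receptors. The series also holds a list of 4677 L3mbtl1 binding positions from hippocampus of postnatal day 7 to 8. It was made from 3 wild-type and 3 L3mbtl1-/- samples on a C57BL6/129 background.

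Neuropeptides are cut from larger precursors, stored in dense-core vesicles and released mainly during intense firing. They act on G protein-coupled receptors, more slowly and over longer distances than GABA or glutamate. In hippocampus, somatostatin and neuropeptide Y mark groups of dendrite-targeting interneurons, and cholecystokinin marks a group of basket cells but is also made by excitatory cells. These were bulk libraries of mixed cultures, so more cells of a type and more RNA per cell cannot be told apart for any gene below.

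Promoter sequence of 6 of the genes is shown because these genes did not all move in 1 direction and hold letters known from activity-regulated promoters. Each of the 6 holds at least 1 of the motifs marked below, so a motif in every line is not a result. Nts, which also holds such motifs, and Npy and Tac2, which hold none, are not shown. RefSeq promoter entries (GRCm38.p6) matched 9 of the 10 members. Each line reads 5′ to 3′ on the gene's strand and gives the 250 bases before the annotated start, or 30 bases around the motif for Sst and Npy1r, at chr16:23890874-23890903 (minus strand) for Sst, chr4:149126764-149127013 (minus) for Cort, chr6:7554811-7555060 (plus) for Tac1, chr9:121495695-121495944 (minus) for Cck, chr8:66697180-66697209 (plus) for Npy1r and chr2:180499726-180499975 (plus) for Ntsr1. The starts used for Sst and Npy1r lie inside the RefSeq gene spans, so only the 30 bases are shown there. Capitals mark 4 motifs searched on both strands, the cAMP response element TGACGTCA, its core TGACG, the AP-1 site TGANTCA and the E-box CACGTG.
Sst: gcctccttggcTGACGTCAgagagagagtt
Cort: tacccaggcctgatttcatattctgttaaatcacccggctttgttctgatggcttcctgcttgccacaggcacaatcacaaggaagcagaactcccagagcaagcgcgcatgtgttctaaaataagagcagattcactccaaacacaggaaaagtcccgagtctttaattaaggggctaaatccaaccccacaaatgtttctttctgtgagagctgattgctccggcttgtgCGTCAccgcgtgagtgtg
Tac1: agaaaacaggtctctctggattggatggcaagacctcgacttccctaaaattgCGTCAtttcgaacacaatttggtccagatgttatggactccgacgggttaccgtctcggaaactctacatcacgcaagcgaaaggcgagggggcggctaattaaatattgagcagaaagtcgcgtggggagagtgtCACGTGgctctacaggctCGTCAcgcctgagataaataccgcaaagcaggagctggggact
Cck: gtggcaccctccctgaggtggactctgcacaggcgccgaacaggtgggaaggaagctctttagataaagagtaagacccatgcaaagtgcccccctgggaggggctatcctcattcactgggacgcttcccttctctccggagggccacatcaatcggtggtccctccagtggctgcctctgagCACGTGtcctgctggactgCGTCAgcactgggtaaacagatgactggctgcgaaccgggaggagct
Npy1r: tgcgccttgctTGAGTCAaggactagtggg
Ntsr1: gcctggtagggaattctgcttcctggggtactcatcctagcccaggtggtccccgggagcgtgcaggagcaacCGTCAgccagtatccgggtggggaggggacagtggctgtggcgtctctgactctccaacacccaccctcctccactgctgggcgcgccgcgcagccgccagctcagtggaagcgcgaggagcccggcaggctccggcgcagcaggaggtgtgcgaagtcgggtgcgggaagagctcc

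The Sst promoter held the full cAMP response element, 48 to 41 bases before the start, and was the only one of the 9 member promoters to do so. The same letters were in 1.55% of all 32851 promoters of this length. The core, which is contained in the full element, was in 6 of the 9 member promoters (Sst, Cort, Tac1, Cck, Nts and Ntsr1), against 17.8% of all promoters. It was at 18 to 14 bases in Cort, at 47 to 43 bases in Cck, and in Tac1 at 43 to 39 and at 197 to 193 bases before the start. Ntsr1 held it farther out, at 177 to 173 bases. The AP-1 letters were in Nts and Npy1r (6.75% of all promoters), and the E-box in Tac1 and Cck (6.02%). Of the 6 genes with the core, 4 rose (Sst, Cort, Tac1 and Nts), 1 fell (Ntsr1) and Cck did not pass the test. Over all tested genes 19.0% were called higher and 20.1% lower. Of the members whose promoter lacked the core, Npy and Npy1r also rose and Tac2 did not pass. A link between these letters and the response was not tested. A match of letters is a description and not a measured binding site.

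Of the 10 genes, 7 rose under picrotoxin (Sst, Npy, Tac1, Crh, Cort, Nts and Npy1r), 1 fell (Ntsr1) and Cck and Tac2 did not pass the test. A call was an adjusted p under 0.05 in edgeR's quasi-likelihood test. Over all 15959 tested genes 39.2% were called, 19.0% higher and 20.1% lower. The median log2 fold change of the 10 genes was 1.24, beside -0.03 over all tested genes. PTX and CTRL libraries did not overlap for 9 of the 10 genes, beside 38.0% of all tested genes. Levels are in CPM, a gene's reads relative to the scaled library size, and are compared only within a gene, since gene lengths were not used. Each gene is given with its Ensembl identifier and its RefSeq span on GRCm38.p6 (mm10). A pair below is a CTRL and a PTX library of the same number. The labels state no pairing. It was taken from these data, and number 3 did not stand out as a pair.

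**Figure D1:**
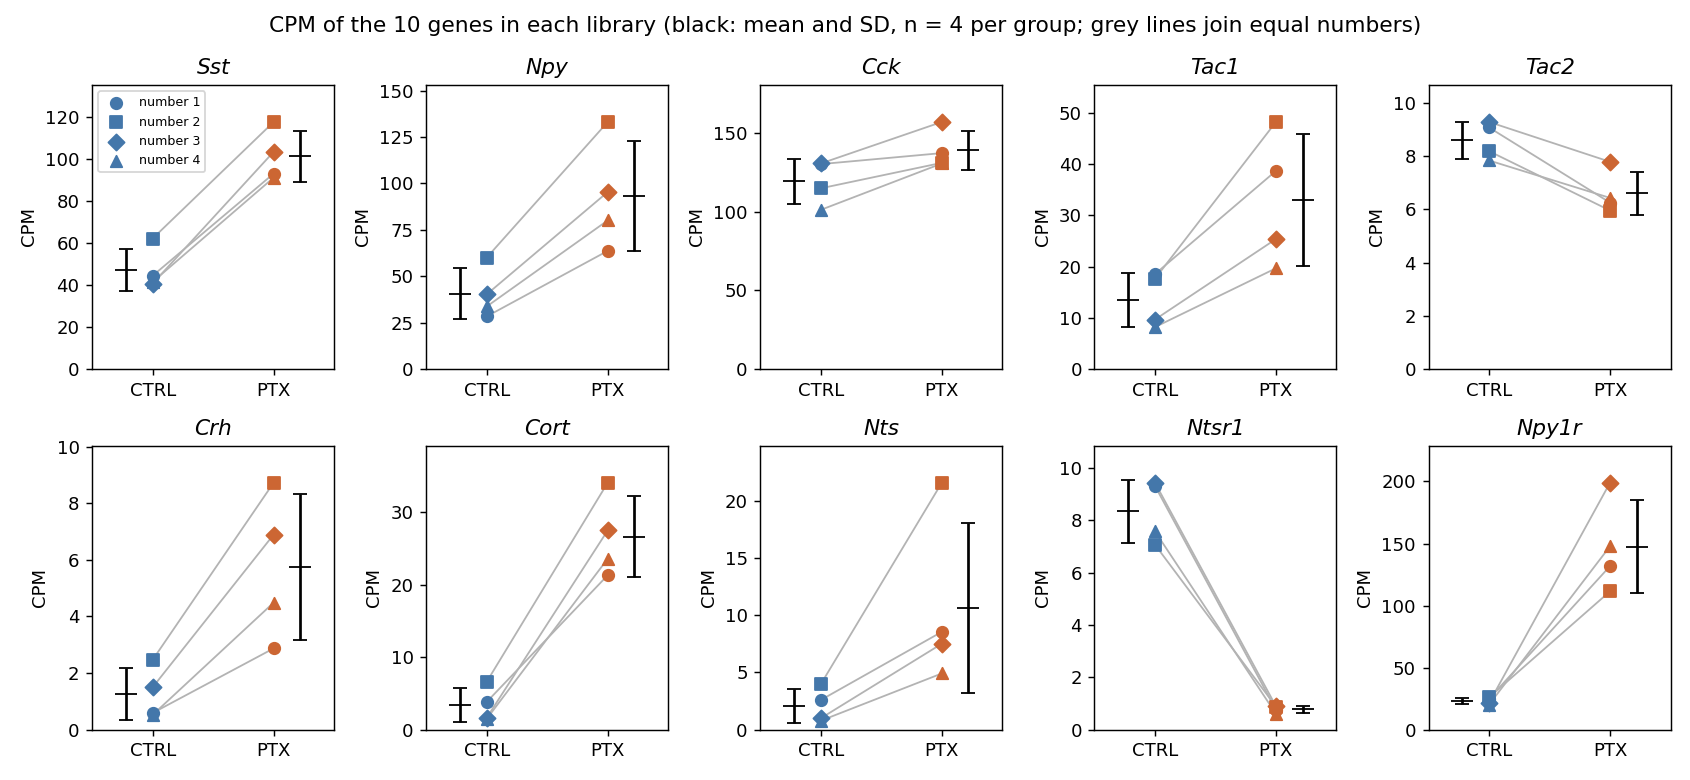
CPM of each of the 10 genes in the 4 CTRL (blue) and 4 PTX (orange) libraries, with mean and SD in black and grey lines joining libraries of the same number. Each panel has its own linear axis from 0. Ntsr1 drops in all 4 pairs to under 1 CPM, Npy1r rises in all 4 to over 111 CPM, and the Cck libraries of both groups meet near 131 CPM.

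Sst (ENSMUSG00000004366, chr16:23889573-23891342), encoding somatostatin, an inhibitory peptide of dendrite-targeting interneurons, was at 44.3, 62.1, 40.6 and 41.4 CPM in the CTRL libraries 1 to 4. In the PTX libraries 1 to 4 it was at 92.9, 117.5, 103.3 and 91.0 CPM. Every PTX library lay above every CTRL library, and the library numbered 2 was the highest in both groups. The mean went from 47.1 ± 10.1 to 101.2 ± 12.1 CPM (SD, n = 4 each), a 2.15-fold rise (log2 fold change 1.10, SE 0.15, edgeR adjusted p = 0.00026). Between same-numbered libraries the ratio ran from 1.89 to 2.55.

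Cort (ENSMUSG00000028971, chr4:149125034-149126763) encodes cortistatin, a peptide close to somatostatin that binds the same receptors. Its CTRL libraries were at 3.83, 6.62, 1.65 and 1.50 CPM. Its PTX libraries were at 21.3, 34.1, 27.5 and 23.6 CPM. The lowest PTX library was thus above the highest CTRL library, although the CTRL values spread 4.41-fold. Cort had the largest fitted rise of the 10 genes, 7.8-fold (log2 fold change 2.96, SE 0.41, edgeR adjusted p = 0.000322), on 239 counts over the CTRL and 1700 over the PTX libraries. The pairs numbered 1 and 2 had PTX over CTRL ratios of 5.56 and 5.15. Those numbered 3 and 4, with the lowest CTRL values (33 and 23 reads), had ratios of 16.7 and 15.7.

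Npy (ENSMUSG00000029819, chr6:49822710-49829507) encodes neuropeptide Y, which damps glutamate release and is made by several interneuron groups. It was at 28.3, 60.03, 40.2 and 33.7 CPM in CTRL and at 63.6, 133.1, 95.4 and 80.04 CPM in PTX. The order of the 4 libraries was the same in both groups, number 2 highest and number 1 lowest. The mean went from 40.5 ± 13.9 to 93.0 ± 29.7 CPM (SD, n = 4 each), 2.29-fold higher (log2 fold change 1.20, SE 0.27, edgeR adjusted p = 0.00526). Within pairs the ratio was nearly constant, from 2.22 to 2.38.

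Npy1r (ENSMUSG00000036437, chr8:66697149-66706800) encodes the Y1 receptor, through which neuropeptide Y acts on the receiving cell. CTRL libraries had 24.8, 26.0, 21.6 and 20.2 CPM and PTX libraries 131.8, 111.5, 199.0 and 147.8 CPM. It rose 6.37-fold (log2 fold change 2.67, SE 0.18, edgeR adjusted p = 4.05e-06), beside 2.29-fold for its ligand gene, a difference that was not tested. The PTX library numbered 2, where Npy was highest, had the lowest Npy1r of its group.

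Tac1 (ENSMUSG00000061762, chr6:7555061-7562978) encodes the precursor of substance P and neurokinin A, excitatory peptides of the tachykinin family. It was at 18.5, 17.6, 9.64 and 8.17 CPM in CTRL and at 38.7, 48.2, 25.4 and 19.7 CPM in PTX. Libraries 1 and 2 were higher than 3 and 4 in both groups, and the groups parted only narrowly, at 18.5 against 19.7 CPM. Tac1 rose 2.45-fold (log2 fold change 1.29, SE 0.33, edgeR adjusted p = 0.0116), with pair ratios of 2.09 to 2.74.

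Tac2 (ENSMUSG00000025400, chr10:127724478-127731768), the gene of neurokinin B, the other tachykinin measured, had a fitted value in the opposite direction. It was at 9.08, 8.19, 9.29 and 7.84 CPM in CTRL and at 6.25, 5.96, 7.79 and 6.43 CPM in PTX. The highest PTX library lay just under the lowest CTRL library, so all 4 pairs were lower in PTX. This was short of a call (log2 fold change -0.38, SE 0.14, edgeR adjusted p = 0.053). With the replicate number as a block in the fit it passed (edgeR adjusted p = 0.0161, log2 fold change -0.38).

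Crh (ENSMUSG00000049796, chr3:19693401-19695396) encodes corticotropin-releasing hormone, the stress peptide, which in hippocampus is made by a sparse set of interneurons. It was the least read of the 8 peptide genes, with 92 counts over the CTRL and 367 over the PTX libraries. Its levels were 0.59, 2.47, 1.50 and 0.52 CPM in CTRL and 2.87, 8.73, 6.89 and 4.49 CPM in PTX. All PTX libraries were above all CTRL libraries, with number 2 highest in both groups. The rise was 4.45-fold with a wide error (log2 fold change 2.15, SE 0.50, edgeR adjusted p = 0.00678).

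Nts (ENSMUSG00000019890, chr10:102481756-102490418) encodes neurotensin, a peptide that acts through Ntsr1, Ntsr2 and the sorting receptor sortilin. It was at 2.59, 3.98, 1.00 and 0.78 CPM in CTRL and at 8.55, 21.6, 7.51 and 4.92 CPM in PTX. The PTX library numbered 2 had more than any other, and the 2 groups did not overlap. Nts rose 5.07-fold (log2 fold change 2.34, SE 0.58, edgeR adjusted p = 0.00903). Without PTX replicate 2 the log2 fold change was 1.75 (edgeR adjusted p = 0.0225).

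Ntsr1 (ENSMUSG00000027568, chr2:180499976-180544979), the gene of the high-affinity neurotensin receptor, fell. It was at 9.32, 7.07, 9.44 and 7.58 CPM in CTRL and at 0.77, 0.88, 0.90 and 0.61 CPM in PTX. Each PTX library held 10 to 15 reads of it, against 116 to 189 in each CTRL library. The fitted fall was 10.5-fold (log2 fold change -3.40, SE 0.20, edgeR adjusted p = 2.65e-06), and by p it ranked 85 of the 15959 tested genes. Ligand and receptor thus moved in opposite directions, Nts up and Ntsr1 down, each without overlap between the groups.

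Cck (ENSMUSG00000032532, chr9:121489824-121495694), the gene of cholecystokinin, was at 130.3, 114.9, 130.7 and 101.2 CPM in CTRL and at 137.3, 131.1, 157.1 and 130.7 CPM in PTX. The groups touched at their edges and all 4 pairs were higher in PTX, with ratios of 1.05 to 1.29. This too was short of a call (log2 fold change 0.22, SE 0.10, edgeR adjusted p = 0.122) and passed with the replicate number as a block (edgeR adjusted p = 0.0123). With that block 8 of the 10 genes were called higher and 2 lower, against 55.3% of all tested genes called, 25.7% higher and 29.6% lower.

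**Figure D2:**
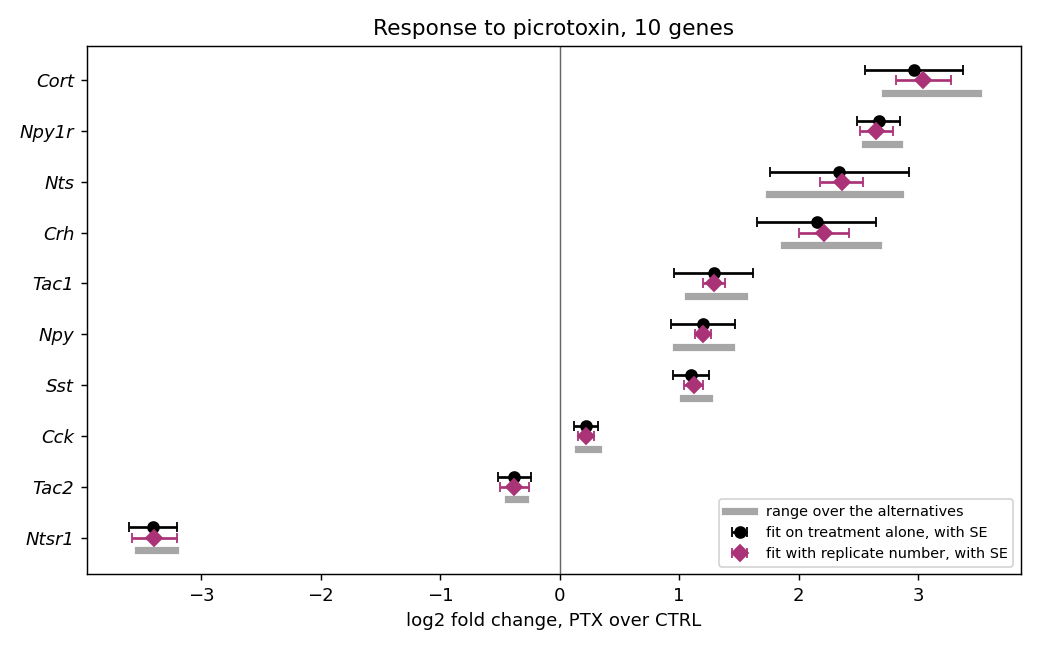
Log2 fold change of PTX over CTRL for the 10 genes with its SE, from the fit on treatment alone (black circles) and with the replicate number as a block (purple diamonds), and the range over all alternatives (grey bars). Only Cck and Tac2 lie within 0.43 of 0, and the block narrows the errors of Nts (0.58 to 0.18) and Crh (0.50 to 0.21).

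In order of fitted rise the genes were Cort, Npy1r, Nts, Crh, Tac1, Npy and Sst. Neighbours in this order were closer than the sum of their standard errors, except Crh and Tac1, which lay 0.86 apart on the log2 scale against a sum of 0.83. Spread between libraries differed among the genes. In CTRL the coefficient of variation was 72.0% for Crh, 71.7% for Nts and 70.5% for Cort, but 11.7% for Npy1r, 11.8% for Cck and 8.08% for Tac2.

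Much of that spread followed the library number, though not for Npy1r. Of the 7 genes that rose, 6 were highest in CTRL library 2 among the CTRL libraries, and 6 were highest in PTX library 2 among the PTX libraries. The exceptions were Tac1, highest in CTRL library 1, and Npy1r, highest in PTX library 3. The share of all tested genes highest in number 2 was not counted, so this is not read as particular to these genes. The sum of 31 GABAergic neuron markers was 2475, 2043, 2286 and 2049 CPM in CTRL libraries 1 to 4 and 2141, 1676, 2033 and 1906 CPM in PTX libraries 1 to 4. Gad1 plus Gad2, the GABA synthesis genes, gave 561.1, 516.6, 510.9 and 421.5 CPM in CTRL and 885.9, 784.0, 865.6 and 783.4 CPM in PTX. Neither sum was highest in number 2. Sums of oligodendrocyte lineage markers (474.2 and 549.2 CPM) and of peptide processing genes (5288 and 6578 CPM) were highest in number 2 of both groups. Much of the first was Pdgfra (307.2 and 352.4 CPM) and much of the second Cpe (3708 and 3623 CPM). Some genes of these lists peaked elsewhere, such as Olig1 in number 3 of both groups and Pcsk1 in PTX library 3. Astrocyte markers were highest in CTRL library 2 and PTX library 3, and microglia markers in CTRL library 3 and PTX library 2. Excitatory and fibroblast markers were highest in number 1, and endothelial and mural markers in number 4. The part of these sums in the spread of the peptides was not tested. Without both libraries numbered 2, a setting added after the data were seen, the same 7 genes were called higher and Ntsr1 lower.

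**Figure D3:**
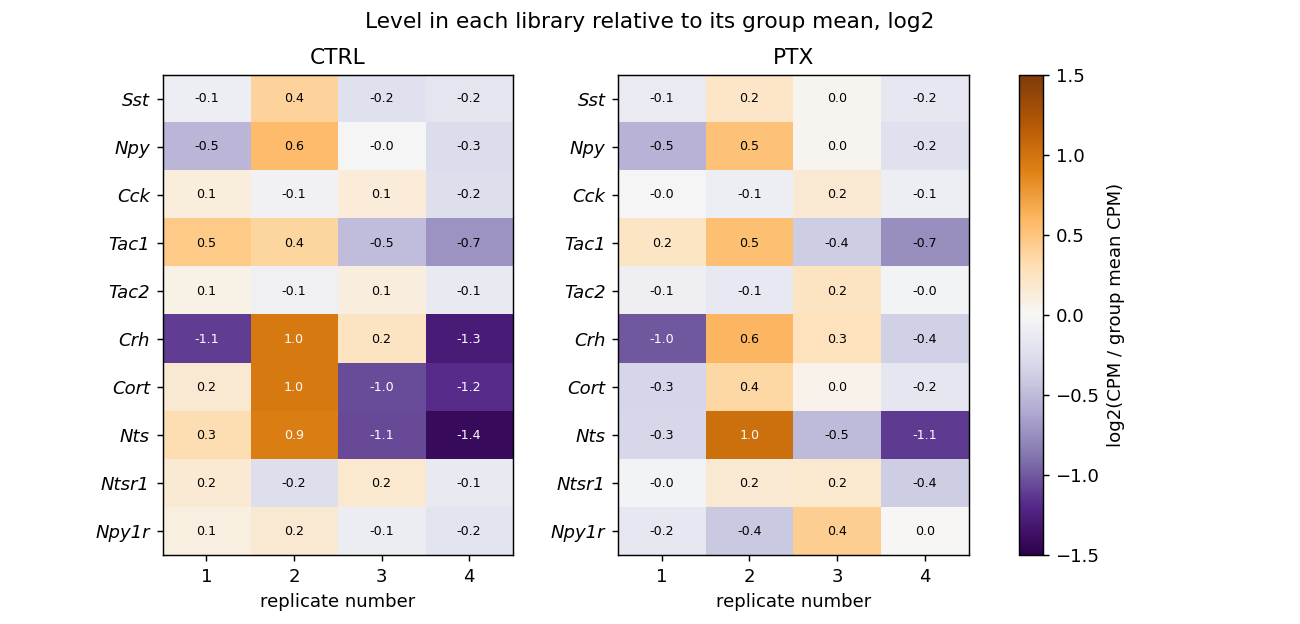
Log2 of each gene's CPM in a library over the mean of its own group, for the 4 CTRL (left) and 4 PTX (right) libraries by replicate number. Orange cells are above and purple cells below the group mean. The column of number 2 is orange for Sst, Npy, Tac1, Crh, Cort and Nts in both groups.

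Of 22 receptor, binding protein and sorting receptor genes beside Ntsr1 and Npy1r, 17 were tested, 10 rose and 5 fell (median log2 fold change 1.50, beside -0.03 over all tested genes). The 15 called of 17 stand beside 39.2% called over all tested genes, 19.0% higher and 20.1% lower, and the 5 genes with too few reads have no call. Among the somatostatin receptors, which inhibit adenylyl cyclase and also bind cortistatin, Sstr2 rose 4.49-fold, from 7.13 to 9.85 CPM in CTRL to 30.04 to 45.8 CPM in PTX (edgeR adjusted p = 6.28e-06). Sstr1 rose 2.83-fold and Sstr4 1.92-fold. Sstr3, a receptor of neuronal cilia, fell 1.75-fold (edgeR adjusted p = 0.0145). The Sstr3 call was lost without PTX replicate 3 or 4, with adjusted p up to 0.0614.

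The neuropeptide Y receptors parted by subtype. Npy2r, the gene of the presynaptic Y2 receptor, fell 2.47-fold, with CTRL libraries averaging 10.2 ± 1.79 and PTX libraries 4.14 ± 1.06 CPM (SD, n = 4 each, edgeR adjusted p = 0.000861). Npy5r rose 3.48-fold, like Npy1r, from a mean of 0.94 to 3.32 CPM. Npy6r was near the limit of reading, with 44 counts in CTRL and 35 in PTX, and had no call (edgeR adjusted p = 0.847).

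The tested tachykinin and cholecystokinin receptors rose, and among their ligand genes Tac1 was called. Tacr1, the receptor of substance P, rose 7.45-fold, from 1.18 to 1.798 CPM in CTRL to 4.08 to 19.5 CPM in PTX (edgeR adjusted p = 0.000531). Tacr3, the receptor of neurokinin B, rose 5.47-fold to 25.8 ± 6.46 CPM (SD, n = 4). Cckbr, the brain type of cholecystokinin receptor, rose 3.83-fold from 13.3 ± 5.65 to 51.3 ± 8.52 CPM (SD, n = 4 each).

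In the Crh system the 2 receptors moved apart. Crhr1, the main brain receptor, fell 2.04-fold (edgeR adjusted p = 0.0112), a call lost without both libraries numbered 2 (edgeR adjusted p = 0.0502). Crhr2 rose 4.44-fold from a mean of 0.45 to 2.04 CPM. Crhbp, a secreted protein that binds Crh and is itself an interneuron gene, rose 9.13-fold, from 15.5 to 35.0 CPM in CTRL to 183.2 to 234.5 CPM in PTX (edgeR adjusted p = 8.94e-06). Of the other neurotensin receptors, Ntsr2, known from astrocytes, had no call (20.7 ± 3.72 and 18.5 ± 2.35 CPM, SD, n = 4, edgeR adjusted p = 0.435). Sort1, encoding sortilin, fell 1.50-fold, and the related sorting receptor gene Sorl1 fell 1.41-fold. Ghsr, the ghrelin receptor gene in this list, rose 16.9-fold from 41 to 633 counts.

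**Figure D4:**
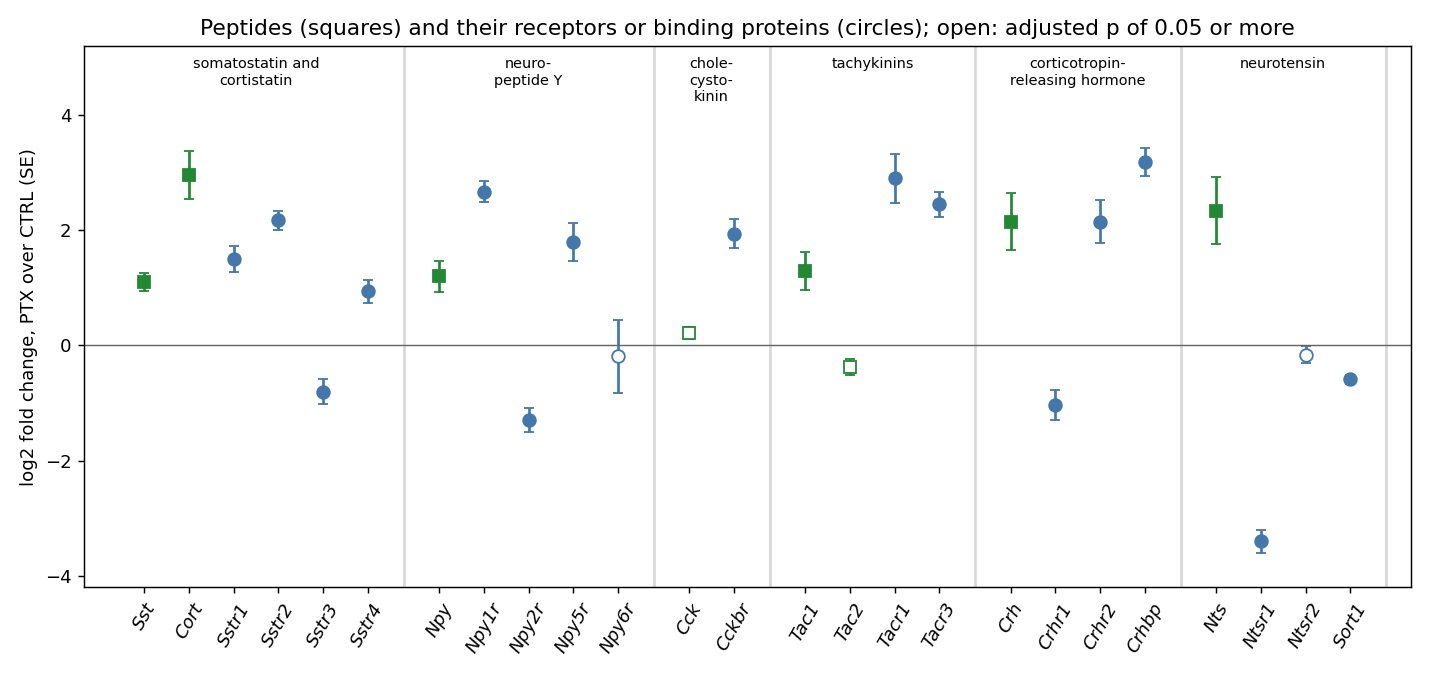
Log2 fold change of PTX over CTRL with its SE for the peptide genes (green squares) and their tested receptors or binding proteins (blue circles), grouped by peptide. Open symbols did not pass the test. Within 1 system receptors lie on both sides of 0, as Npy1r (2.67) and Npy2r (-1.30) or Crhr2 (2.15) and Crhr1 (-1.03).

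Other neuropeptide genes rose too. Of 20 further genes listed with them, 11 were tested, 9 rose, 0 fell, and Nmb and Cbln1 did not pass (median log2 fold change 1.26), beside 19.0% of all tested genes higher. The list also holds Cbln1, Cbln2 and Cbln4, genes of secreted synapse organisers and not classical neuropeptides, and the 9 rises include Cbln2 and Cbln4. Among the rises Pdyn, the dynorphin precursor gene, overlapped between the groups (2.19-fold, edgeR adjusted p = 0.0252). Its call was lost without CTRL replicate 2 or 3, PTX replicate 2 or 4, or both libraries numbered 2 (edgeR adjusted p up to 0.106). At an unadjusted p under 0.05 the number lower in this list was also 0, and DESeq2 called 0 lower. By p the leading rises were Pnoc, the nociceptin precursor (9.81-fold), Adcyap1, the PACAP precursor (17.9-fold), and Penk, the enkephalin precursor (21.9-fold, from 1.30 to 3.53 CPM in CTRL to 36.4 to 49.5 CPM in PTX). Among 13 genes of peptide processing 5 rose and 2 fell, so 7 of 13 were called beside 39.2% of all tested genes. With the block 6 were higher and 4 lower, 10 of 13 beside 55.3%. Pcsk1, the prohormone convertase of the regulated pathway, rose 23.0-fold to 862.8 ± 158 CPM (SD, n = 4), while its relative Pcsk2 fell 2.19-fold from 162.6 ± 20.0 to 74.1 ± 4.91 CPM. Pam, which amidates peptide ends, rose 2.11-fold and Furin 2.41-fold, and Ctsl and Pcsk5 were the other rises. Pcsk1n, an inhibitor of Pcsk1, fell 1.34-fold, which was no longer called when CTRL library 1, 2 or 3, PTX library 3 or 4, or both libraries numbered 2 were left out (edgeR adjusted p up to 0.142).

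Markers of GABAergic neurons moved both ways beside the peptides. Of 31 such genes 30 were tested, 4 rose and 14 fell (median log2 fold change -0.39), beside 19.0% higher and 20.1% lower over all tested genes. In the fit with the block 5 were higher and 18 lower, beside 25.7% higher and 29.6% lower over all tested genes. The rises were the GABA synthesis genes Gad1 (1.53-fold) and Gad2 (1.84-fold) and the transcription factor genes Sp8 (1.87-fold) and Dlx6, the last lost in 8 of 15 alternatives (edgeR adjusted p up to 0.106). Falls led by p were Nxph1, a neurexin ligand gene (3.16-fold), Calb1, the calbindin gene that granule and pyramidal cells also use (4.45-fold), and Dlx1, an interneuron transcription factor gene (2.38-fold). The summed markers ran from 2043 to 2475 CPM in CTRL and from 1676 to 2141 CPM in PTX.

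Set against Gad1 plus Gad2 in the same library, which stood at 421.5 to 561.1 CPM in CTRL and 783.4 to 885.9 CPM in PTX, the levels were also described. Dividing by a sum that was higher in PTX moves every gene downward, and over all tested genes 4.61% were higher and 61.6% lower in PTX without overlap (66.2% in all). Cort went from 0.32 to 1.28% of that sum in CTRL to 2.41 to 4.35% in PTX, and Npy1r from 4.22 to 5.03% to 14.2 to 23.0%, with no overlap. Sst (7.90 to 12.0% in CTRL, 10.5 to 15.0% in PTX), Npy, Tac1, Crh and Nts overlapped between the groups on this scale, but each was higher in PTX in 4 of 4 same-numbered pairs. For Cort and Npy1r the lack of overlap already makes all 4 pairs higher. Of all tested genes 6.64% were higher in all 4. Cck was lower on it, at 22.2 to 25.6% in CTRL and 15.5 to 18.1% in PTX, as were Tac2 (1.59 to 1.86% and 0.71 to 0.90%) and Ntsr1. None of them overlapped between the groups, so each was lower in 4 of 4 pairs, beside 79.2% of all tested genes lower in all 4. Cck therefore has no shared direction on the 2 scales, and this scaling was added after the data were seen.

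**Figure D5:**
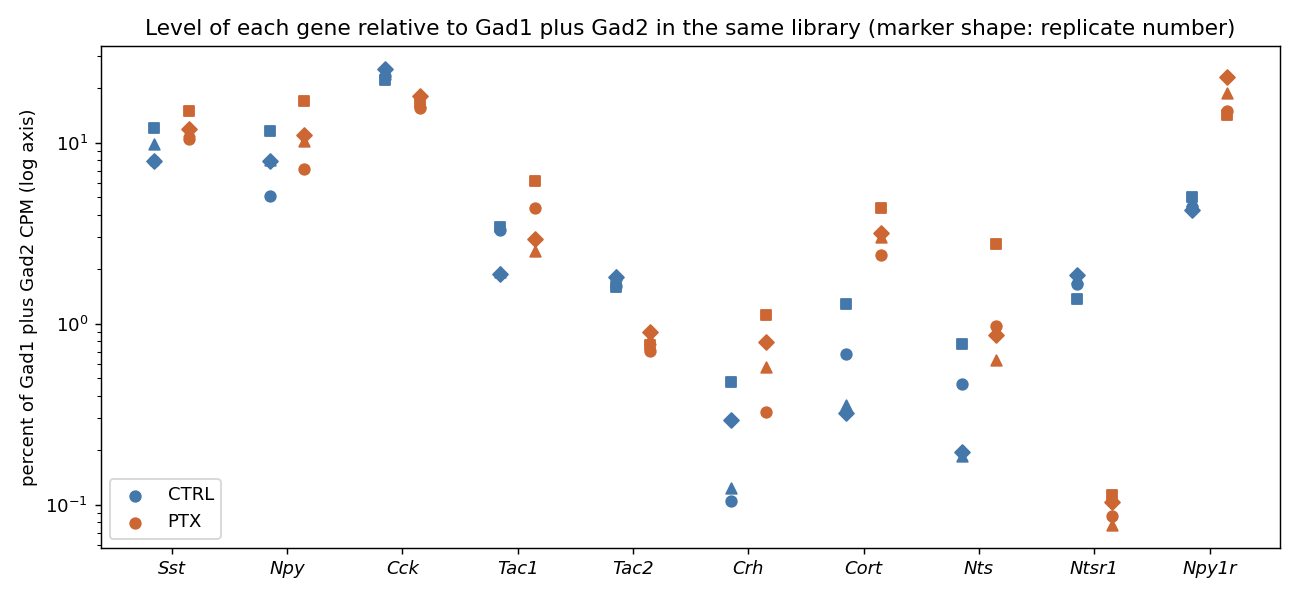
Level of each of the 10 genes as a percent of the summed Gad1 and Gad2 CPM of the same library, on a log axis, with CTRL in blue, PTX in orange and 1 marker shape per replicate number. Cort and Npy1r lie higher and Cck, Tac2 and Ntsr1 lower in PTX without overlap, beside 66.2% of all tested genes without overlap. The other 5 genes overlap but are higher in PTX in 4 of 4 pairs of equal number.

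Other cell types also differed between the groups or between libraries, and their part in these results was not tested. Of 12 excitatory neuron markers 3 rose and 7 fell (median log2 fold change -0.89). Their sum was 595.8 to 750.6 CPM in CTRL and 1099 to 1463 CPM in PTX, but without Slc17a6 (mean 39.4, then 501.2 CPM) and Nrn1 (111.8, then 492.7 CPM) it was 470.1 to 603.5 CPM, then 250.9 to 289.3 CPM. Of 10 astrocyte markers 1 rose and 5 fell (6528 to 8701 CPM, then 4774 to 6539 CPM). Microglia markers stood at 20.3 to 106.6 CPM, then 44.9 to 205.5 CPM, and oligodendrocyte lineage markers at 232.4 to 474.2 CPM, then 259.6 to 549.2 CPM. Endothelial and mural markers stood at 77.8 to 243.0 CPM, then 65.3 to 171.1 CPM. Of their tested genes 1 of 9, 0 of 10 and 2 of 7, in that order, were called higher and 0 lower. Over all tested genes 39.2% were called, 19.0% higher and 20.1% lower. Meningeal fibroblast markers (1 of 10 higher, 0 lower) stood at 783.5 and 705.7 CPM in the libraries numbered 1, against 188.1 to 279.7 CPM in the other 6. With the block 55.3% of all tested genes were called, 25.7% higher and 29.6% lower. In that fit excitatory markers had 4 higher and 7 lower, and astrocyte markers 1 higher and 7 lower. The calls were 3 higher for microglia, 6 higher for oligodendrocyte lineage, 3 higher and 2 lower for endothelial and mural, and 1 higher and 4 lower for fibroblast markers. Although no marker in these lists was at 0 in all 8 libraries, some had few reads over the 4 libraries of a group, such as Cldn5 (4 in CTRL and 3 in PTX), Nkx2-1 (14 and 11) and Mog (16 and 11). Without both libraries numbered 1 the calls of all 10 peptide and receptor genes stood as given.

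Genes most like each member were found by the root mean square difference between log2 CPM profiles over the 8 libraries, each profile centred on its mean, among 14699 genes. Sst was closest to Rasl11a (0.09), Mchr1 (0.10), the receptor gene of melanin-concentrating hormone, and Emb (0.12). Npy1r was closest to Ifrd1 (0.12), Gadd45a and Plk2, and Ntsr1 to Sowaha (0.14), Ypel1 and E030013I19Rik. For Cort they were Klhl4 (0.27), Crhbp and the immediate early gene Nr4a1, and for Crh Fbln2 (0.20), Gabrq and Kcnf1. Npy had S100a10 (0.18), Col2a1 and Slc35g2, Tac1 had Krt12 (0.27), Lipg and Rgs10, and Nts had no gene nearer than Sult2b1 (0.43), followed by Cyb5r1 and Trpc6. Cck (Agap2, Kdelr2 and Lcmt2) and Tac2 (Lgr4, Xrn2 and Mmp16) had close neighbours within 0.07. Among the members themselves Sst and Npy were nearest to each other (0.26), with 247 other genes nearer to Sst and 20 nearer to Npy.

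Of the 10 genes, 1 had an L3mbtl1 peak within 2000 bp of a gene end. L3mbtl1 is a chromatin reader with MBT domains that is known to compact chromatin. The peak lay inside Crh, at chr3:19693782-19694337 (mm10), 556 bp wide, in a gene that RefSeq places at 19693401 to 19695396. Its score of 10.6 was the authors' own and ranked 2425 of 4677, with a median of 10.7 over the list. Peaks were near 26.0% of tested genes with a position and 9.68% of all genes with a position, and 1 of 10 is read as no result about these genes. For the other 9 genes the nearest peak was 56.9 kb (Tac2) to 1994 kb (Nts) away. Of the 20 further genes listed with the peptides, Penk, Nmb, Cbln1 and Cbln2 had a peak, and of the 22 receptor genes Sstr2, Sstr4 and Sort1. The list carries 1 score per peak and no column by sample, so the 2 genotypes could not be set against each other.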

How the data were processed

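RNA was measured in 8 culture libraries and L3mbtl1 binding in 6 tissue samples. The authors deposited 1 table of unnormalized read counts by Ensembl identifier for each culture library. The submitters' processing notes name Bowtie2 2.2.4, CASAVA 1.8, HTSeq 0.6.1, TopHat2 2.0.9 and mm10. Their roles, the strand setting and the annotation release: not given in the sources used here. Antisense or overlapping reads therefore cannot be told apart (RefSeq places Gm38661 over Cck and Gm42189 over Crh, neither listed by that symbol in the count tables). Symbols matched 42462 of 43629 identifiers. The tables' summary lines were left out; 19.9% to 26.8% fell outside genes and 15.2% to 20.5% were not unique. Each library had 14524916 to 19498189 counts in genes. No library repeated another (smallest chi-square per degree of freedom 9.45 within a group). The authors deposited 1 peak list, with a score for each peak, naming all 6 ChIP-seq samples. Its peak caller and threshold: not given in the sources used here.

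Groups came from sample titles. edgeR 4.0.16 in R 4.3.3 fitted treatment alone (TMM, filterByExpr, quasi-likelihood F test, Benjamini-Hochberg over 15959 genes); the SE is the log2 fold change over the square root of F, and CPM use TMM-scaled library sizes. The script was tested on simulated data. Same-numbered CTRL and PTX libraries deviated together from their group means (r = 0.79, 0.58, 0.17 and 0.65 for numbers 1 to 4). The numbers were therefore taken to pair libraries, from the data and not the labels. Number 3 did not stand out as a pair, since CTRL library 3 had r = 0.22 with PTX library 4 and 0.19 with PTX library 2. Alternatives were RLE and upper quartile scaling, no filter, DESeq2 1.42.0, the block, leaving out libraries, and other peak windows. The members and lists were chosen with earlier results of these data known. Named genes were the 10 members, the 3 called list genes with the smallest p per direction, all tested receptors of the peptides, and the 3 genes most like each member (log2 of CPM plus 0.5, mean CPM of at least 1). Dlx6, Slc17a6, Nrn1, Cldn5, Nkx2-1, Mog, Ctsl, Pcsk5, Nmb, Cbln1, Cbln2, Vip, Cartpt, Cbln4, Pdgfra, Cpe, Olig1 and Pdyn were named after their values were seen. Gene positions are RefSeq's (GRCm38.p6).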

Additional observations from a re-analysis of the deposited data

How the results depend on the processing

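Over 15 alternatives each, 147 of 150 member values kept direction and call, and 0 reversed. With the replicate block Cck (0.22, edgeR adjusted p = 0.0123) and Tac2 (-0.38, edgeR adjusted p = 0.0161) passed, so 2 genes were called lower in place of 1, and the block changed no other member's call. Tac2 also passed with upper quartile scaling (-0.41, edgeR adjusted p = 0.0338; 2 genes lower), over a range of adjusted p from 0.0161 to 0.202; for Cck the range was 0.0123 to 0.284. The 2 processing genes called lower became 4 with the block, 1 without both libraries numbered 2, and 1 to 3 with 1 library left out. Peaks above the median score left 0 members with a peak. Of 585 values for other named list genes, 17 lost the call and 3 reversed. Not counted were Pdyn, Cbln2, Slc17a6, Nrn1, Cpe, Pdgfra, Olig1, Cldn5, Nkx2-1 and Mog, nor genes named only as most like a member. Pdyn, left out of this count, lost its call in the settings given above. The reversed values were of Npy6r (0.05 without CTRL replicate 3, 0.21 without PTX replicate 1, range -0.55 to 0.21 with 1 library left out) and Cbln1 (-0.03 without both libraries numbered 1). The cause was not tested. Low counts limit Npy6r, Crh and, in PTX, Ntsr1. In CTRL they also limit others, such as Nts and Cort (12 and 23 reads in library 4). Over all of CTRL, Crhr2 had 32 reads, Ghsr 41 and Cartpt 8, so the sizes of their rises are uncertain.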

Other observations

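Further genes of the list of other neuropeptide genes, named after their values were seen, also rose. Vip, the peptide gene of interneurons that contact other interneurons, was at 26.5, 32.6, 26.2 and 18.6 CPM in CTRL and at 59.1, 76.8, 70.9 and 41.4 CPM in PTX, 2.39-fold higher (edgeR adjusted p = 0.00102). Number 2 was the highest library of both groups, as for Sst and Npy. Cartpt, the precursor gene of CART peptides, had 8 reads in all of CTRL and 652 in all of PTX (log2 fold change 6.39, SE 0.61, edgeR adjusted p = 3.17e-05), and the log2 fold change was 7.28 without CTRL replicate 2 and 7.01 without both libraries numbered 2. Cbln4, encoding a secreted synapse organiser of somatostatin interneurons, rose 4.86-fold, from 5.42 to 9.79 CPM in CTRL to 34.3 to 45.0 CPM in PTX.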
